A study of Mus musculus with 7 samples.

Results

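A set of 10 secreted proteins of the wound matrix were followed as mRNA in healing shoulders. They are Fn1 (fibronectin), Postn (periostin), Tgfbi (also known as betaig-h3), Sparc (osteonectin), Cthrc1, the thrombospondins Thbs1 and Thbs2, the CCN proteins Ccn1 and Ccn2, and Inhba, the subunit from which activin A is made. The 10 genes were taken by symbol from the 56854 gene identifiers common to all count files. Each library was made from the whole shoulder joint of 1 mouse killed 2 weeks after surgical repair of the supraspinatus tendon, one of the rotator cuff tendons, of the left shoulder. The mice were wild type (n = 3) or Tnc-/- (n = 4), which lack tenascin C, itself a matricellular glycoprotein induced in injured tendon. All 7 mice had the repair, so no unoperated joint enters any comparison, and strain, sex and age are not given in the sources used here. The question was whether the other wound matrix proteins differ in level when tenascin C is missing.

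Matricellular proteins are secreted into the extracellular matrix but act mainly on cells: they bind integrins, syndecans and scavenger receptors, hold growth factors and tune how firmly a cell adheres. Most are scarce in resting adult tissue and are made in quantity by activated fibroblasts after injury. Fibronectin is the provisional scaffold on which such cells assemble periostin, tenascin C and collagen; TGF-beta and the YAP/TAZ-TEAD transcription factors of the Hippo pathway are well-known inducers of several of these genes, Ccn1 and Ccn2 above all.

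Promoter sequence is shown for 3 genes that stand for the patterns described here: Sparc, the most abundant, Postn and Ccn1. Postn, like the mean of the fibroblast markers, was highest in Tnc-/- library 4 and wild-type library 1, whereas Ccn1 was not. Postn followed those markers only in part, since it was lowest in Tnc-/- library 3, where they were not. The sequences are the 250 bases before the RefSeq gene start, in GRCm38.p6, written 5′ to 3′ on the gene's strand. They lie at chr11:55420081-55420330 (minus strand) for Sparc, chr3:54360857-54361106 (plus strand) for Postn and chr3:145649986-145650235 (minus strand) for Ccn1. Capitals mark matches on either strand to 5 short motifs. The first is the TATA box, searched as TATAAA. The core recognised by TEAD factors was searched as GGAATG, which reads CATTCC on the opposite strand. A Smad half-site was taken to be GTCTG wherever it occurred. For the GC box the letters were GGGCGG in each window. The AP-1 site was searched as TGANTCA.
Sparc: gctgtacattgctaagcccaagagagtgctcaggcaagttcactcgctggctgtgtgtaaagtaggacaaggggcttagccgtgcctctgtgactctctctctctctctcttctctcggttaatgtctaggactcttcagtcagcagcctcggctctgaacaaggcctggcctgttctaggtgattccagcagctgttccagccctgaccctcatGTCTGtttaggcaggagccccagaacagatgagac
Postn: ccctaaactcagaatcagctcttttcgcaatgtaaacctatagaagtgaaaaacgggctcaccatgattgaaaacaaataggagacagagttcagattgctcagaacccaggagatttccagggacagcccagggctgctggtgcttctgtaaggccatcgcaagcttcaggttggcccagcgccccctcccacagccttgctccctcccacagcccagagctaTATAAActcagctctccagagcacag
Ccn1: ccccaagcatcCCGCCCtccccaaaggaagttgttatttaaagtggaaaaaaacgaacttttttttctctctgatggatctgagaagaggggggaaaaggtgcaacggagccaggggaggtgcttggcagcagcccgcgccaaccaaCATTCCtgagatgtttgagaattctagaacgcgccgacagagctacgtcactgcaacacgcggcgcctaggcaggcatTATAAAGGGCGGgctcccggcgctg
The Ccn1 window held the TEAD letters 103 bases before the start, a TATA box 25 bases before it and 2 GC boxes, one of which adjoins the TATA box. The Postn window held a TATA box 26 bases before the start and no other of these motifs, and that of Sparc held 1 Smad half-site. Such short motifs are common. Of 32851 RefSeq promoter windows of this length, 12.6% held the TEAD letters, 42.2% the Smad half-site, 12.4% the TATA box, 32.7% the GC box and 6.75% the AP-1 letters. Among the 6 members in the table (Postn, Sparc, Thbs2, Ccn1, Tgfbi and Inhba), 1, 3, 4, 2 and 0 held them, in the same order. The TATA letters of Inhba lay 91 bases before the start, farther than those of Postn and Ccn1. Those of Thbs2 lay 126 bases before a start that was not found in a transcript.

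The libraries held 13464057 to 28191101 gene counts. Tnc, the deleted gene, stood at 437, 292 and 327 CPM (the share of a library's counts that fall on a gene, scaled by TMM) in wild-type libraries 1 to 3 and at 33.4, 38.9, 39.9 and 55.0 CPM in Tnc-/- libraries 1 to 4. In edgeR this was -3.08 ± 0.21 (SE) as log2 fold change, with an adjusted p of 2.8e-04. The count files of the genotypes differ in form and in the identifiers they list, and whether the counting itself differed is not given. Any such difference cannot be told apart from genotype in the values below. Wild-type libraries 2 and 3 stood apart: 2010 olfactory and vomeronasal receptor genes summed to 1564 and 1112 CPM there, to 89.8 CPM in wild-type library 1 and to 33.3 to 41.5 CPM in Tnc-/-. Of 17791 genes tested, 5159 (29%) were called between genotypes at an adjusted p under 0.05, 10.3% higher and 18.7% lower in Tnc-/-. Markers of skeletal muscle, bone, cartilage and erythroid cells were present, while 5 epidermal keratins summed to at most 3.23 CPM. Some marker sums moved with genotype: erythroid markers summed to 4334 to 8418 CPM in wild type and 12283 to 24390 CPM in Tnc-/- (3 of 5 called higher), muscle markers to 18988 to 25068 and 26935 to 39945 CPM (1 of 7 called higher), and 2 of 5 endothelial markers were called lower. Their part in the differences of related genes given below was not tested. Of 5 tendon markers, Tnmd (182 to 361 CPM), Fmod, Kera and Mkx were detected in every library, Mkx was called lower in Tnc-/- (log2 fold change -0.92, adjusted p = 0.0379), and Scx was listed at 0 in all 7.

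None of the 10 genes was called between the genotypes. The count filter passed 9 (all but Inhba), and 0 of 9 had an edgeR adjusted p under 0.05 against 29% of all genes tested. By an unadjusted p under 0.05 the count was also 0, and DESeq2 and limma voom each gave 0. In none of the 9 did the genotypes separate completely, which 35.1% of all tested genes did (17.7% higher and 17.4% lower in Tnc-/-). Of the fold changes, 6 were positive and 3 negative, with a median log2 fold change of 0.092 beside -9.0e-04 over all tested genes. The lowest adjusted p was 0.200, for Ccn2. The 95% intervals of the 9 folds lay between 0.629 and 1.71, so each of them excluded a doubling and a halving in this fit. With the receptor sum as a covariate the errors were wider, and Thbs2 stood at -0.67 (SE 0.32), Cthrc1 at -0.55 (SE 0.38) and Postn at -0.43 (SE 0.39) on the log2 scale, none of them called. Weighting libraries by quality in limma voom called 2 members, Tgfbi (log2 fold change 0.43, adjusted p = 0.032) and Ccn1 (-0.33, adjusted p = 0.029). That fit called 10084 of all genes. It gave wild-type library 1 a weight of 0.098, against 0.48 to 4.64 for the other libraries. Its calls thus compare mainly the wild-type libraries with the high receptor sum with Tnc-/-.

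**Figure D1:**
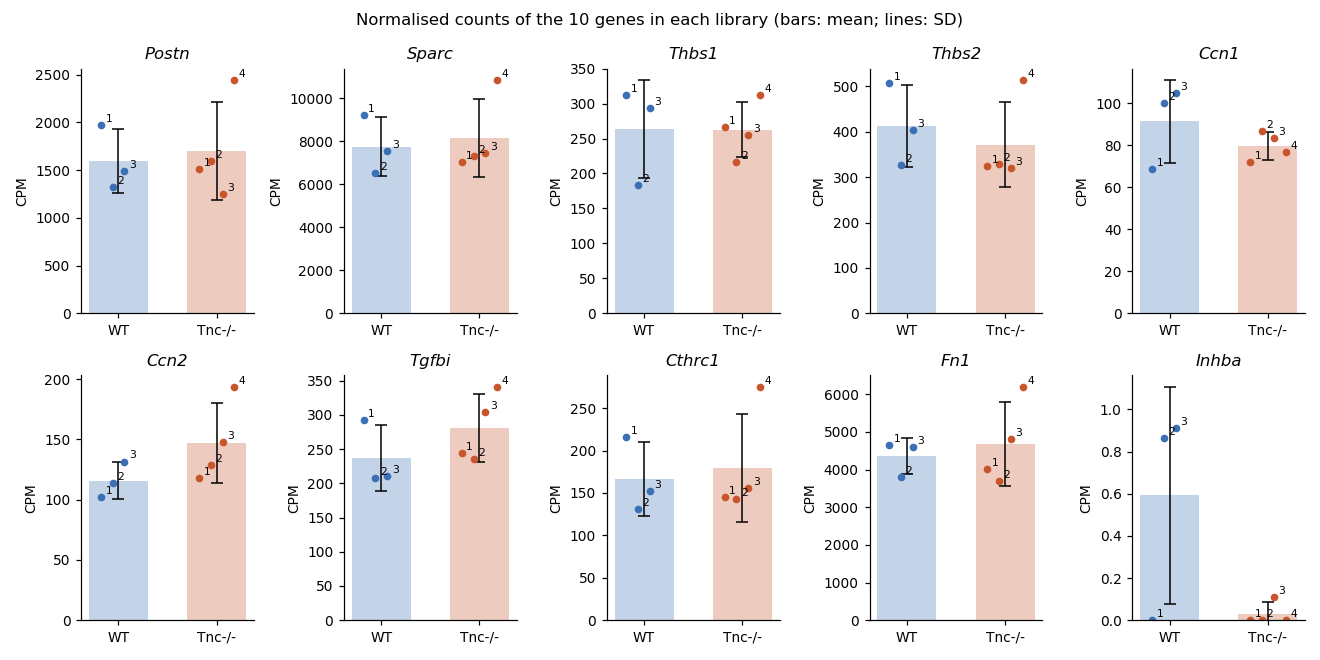
CPM of the 10 genes in the 3 wild-type (blue) and 4 Tnc-/- (orange) libraries; points are libraries numbered by replicate, bars are group means and lines their SD, each panel on its own scale from 0. The genotypes overlap in the 9 abundant genes, and Tnc-/- library 4 is the highest point of its group in 8 of them (all but Ccn1).

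The scaffold proteins come first. Fn1 (ENSMUSG00000026193), the fibronectin gene, measured 4647, 3800 and 4606 CPM in the wild-type libraries, 1 to 3 in order, and 4021, 3695, 4823 and 6190.3 CPM in Tnc-/- libraries 1 to 4. The wild-type values fell inside the Tnc-/- range, whose top was library 4. The means were 4351 ± 478 CPM (SD, n = 3) and 4682 ± 1111 CPM (SD, n = 4), and the log2 difference was 0.11 with an SE of 0.23 (adjusted p = 0.762 in edgeR). Postn (ENSMUSG00000027750), which binds fibronectin, tenascin C and collagen and aids collagen cross-linking, had 1973, 1323 and 1492 CPM in wild type and 1513, 1597, 1252 and 2443 CPM in Tnc-/-. Both the lowest and the highest library were Tnc-/-, so the groups overlapped throughout. The Postn fold was 1.07 with a 95% interval of 0.704 to 1.61 (adjusted p = 0.818). Tgfbi (ENSMUSG00000035493), a TGF-beta-induced adhesion protein with the same fasciclin domains as periostin, had 293, 208 and 211 CPM in wild type and 245, 235, 304 and 341 CPM in Tnc-/-. All 4 Tnc-/- libraries lay above wild-type libraries 2 and 3, while wild-type library 1 lay among them. Its log2 fold change was 0.25 (SE 0.19; adjusted p = 0.369). Without wild-type library 1 it was 0.52 (edgeR adjusted p = 0.0183), and against that library alone it was -0.063. The fit without library 1 keeps only the wild-type libraries with the high receptor sum and called 14113 of 21989 genes tested. A fit with library 1 as the sole wild type has 1 sample in that arm, which is assumed to vary like the Tnc-/- libraries.

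Sparc and Cthrc1 are products of collagen-making cells. Sparc (ENSMUSG00000018593), a collagen chaperone, had 9199, 6508 and 7529 CPM in wild type and 7016, 7316, 7447 and 10835 CPM in Tnc-/-. Tnc-/- libraries 1 to 3 lay close together inside the wild-type range, and library 4 lay above every other library. The means were 7745 ± 1358 CPM (SD, n = 3) and 8153 ± 1797 CPM (SD, n = 4), and the log2 difference was 0.074 with an SE of 0.24 (adjusted p = 0.844 in edgeR). Cthrc1 (ENSMUSG00000054196), a secreted marker of activated matrix-producing fibroblasts, had 216, 131 and 153 CPM in wild type and 145, 143, 156 and 275 CPM in Tnc-/-. The same library 4 was again alone at the top. Cthrc1 was the most variable of the 9 within Tnc-/-, with a coefficient of variation of 35.5%, and its fold was 1.08 with a 95% interval of 0.701 to 1.66 (adjusted p = 0.791).

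The thrombospondins Thbs1, which activates latent TGF-beta and is stored in platelets, and Thbs2, a collagen fibril modulator that restrains vessel growth, did not separate the genotypes either. Thbs1 (ENSMUSG00000040152) had 313, 183 and 294 CPM in wild type and 266, 216, 255 and 312 CPM in Tnc-/-. Its means of 263 ± 70.2 CPM (SD, n = 3) and 262 ± 39.3 CPM (SD, n = 4) were the closest of any member, and the log2 difference was -0.0041 with an SE of 0.21 (adjusted p = 0.992 in edgeR). Markers of megakaryocytes and platelets moved with genotype: 4 of 6 were called higher in Tnc-/-, and their sum was 220 to 474 CPM in wild type and 506 to 890 CPM in Tnc-/-. Their part in the level of Thbs1 was not tested. Thbs2 (ENSMUSG00000023885) had 507, 327 and 405 CPM in wild type and 324, 329, 320.3 and 514 CPM in Tnc-/-. Tnc-/- libraries 1 to 3 sat at the level of wild-type library 2, and Tnc-/- library 4 matched wild-type library 1. The log2 fold change of Thbs2 was -0.15 (SE 0.23; adjusted p = 0.648), and without wild-type library 1 it was 0.12.

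Ccn1 (formerly Cyr61) and Ccn2 (formerly Ctgf) are paralogous integrin-binding proteins and standard readouts of YAP/TAZ and TGF-beta activity. Ccn1 (ENSMUSG00000028195) had 68.8, 100.3 and 105 CPM in wild type and 71.8, 86.6, 83.5 and 76.6 CPM in Tnc-/-. Wild-type library 1 was the lowest of all and wild-type libraries 2 and 3 the highest. Its log2 fold change was -0.20 (SE 0.16; edgeR adjusted p = 0.393), and against wild-type library 1 alone it was 0.20. Ccn2 (ENSMUSG00000019997) had 102, 114 and 132 CPM in wild type and 118, 129, 148 and 193 CPM in Tnc-/-. Tnc-/- libraries 3 and 4 lay above all wild-type libraries, while libraries 1 and 2 lay below wild-type library 3. Its log2 fold change of 0.35 (SE 0.19; adjusted p = 0.200) was the largest of the 9 and was positive in all 20 alternative fits (0.089 to 0.54), none of which called it. In GENCODE M21 the exons of Ccn2 overlap the opposite-strand transcript Gm15270 over 23.2% of their length. Whether counting used strand is not given in the sources used here, and Gm15270 itself had 22 to 39 counts per library.

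**Figure D2:**
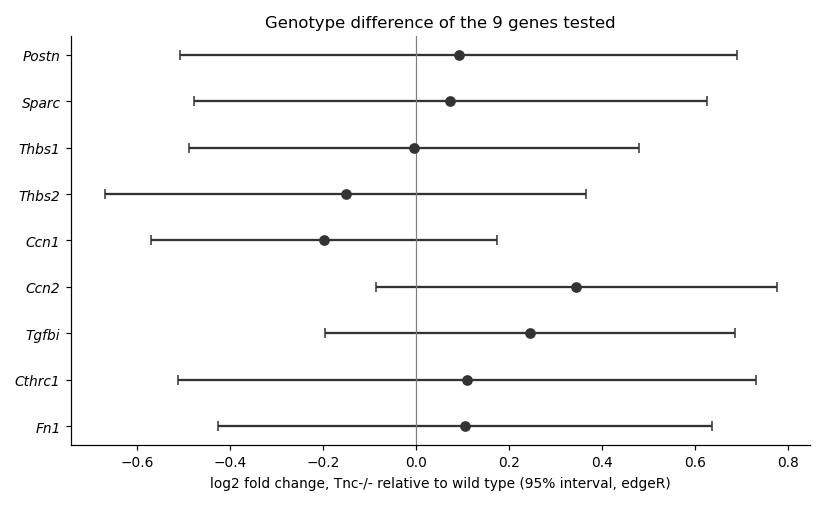
Log2 fold change of the 9 tested genes, Tnc-/- relative to wild type, with 95% intervals from edgeR; the grey line marks 0. Every interval spans 0, with Ccn2 (0.35) farthest to the right and Ccn1 (-0.20) farthest to the left.

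Inhba (ENSMUSG00000041324) was counted at or near 0. It had 0, 13 and 15 counts in wild-type libraries 1 to 3 and 0, 0, 2 and 0 counts in Tnc-/- libraries 1 to 4. Only wild-type libraries 2 and 3 rose above a floor of 3 counts, and these are the 2 libraries with the high olfactory and vomeronasal receptor sum. Their levels were 0.864 and 0.911 CPM, whereas a count of 0 in the other wild-type library allows up to 0.161 CPM. The part of the receptor background in these counts was not tested. Nor was it tested whether reads on Inhba were listed as ambiguous, which 14.2 to 14.6% of the gene plus ambiguous reads of the Tnc-/- libraries were. Itgam and Alas2, markers of myeloid and erythroid cells, were listed at 0 in all 7 libraries, as Scx was, so a value at 0 need not mean that a gene was silent. In GENCODE M21 the pseudogene B230303A05Rik lies on the opposite strand within the span of Inhba without sharing exon bases, and it had 237 to 287 counts in the same 2 wild-type libraries and 16 to 77 counts in the other 5. The count filter removed Inhba, so it has no fold change of its own; without wild-type library 1 it passed the filter and was called lower in Tnc-/-, a call that compares the wild-type libraries with the high receptor sum with Tnc-/- alone. The floor covers counting error only, whereas the intervals of the fold changes come from the spread between mice.

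Levels were also ordered per kb of exon (GENCODE M21), the only scale on which different genes can be compared. Sparc led with a mean over the 7 libraries of 2106 ± 398 CPM per kb (SD), followed by Fn1 at 389 ± 72.9 and Postn at 190.3 ± 48.0. The Sparc range did not overlap that of Fn1, nor the Fn1 range that of Postn. Next came Cthrc1 (109), Tgfbi (69.5) and Thbs2 (55.6 CPM per kb), each with a range that overlapped its neighbour's. Ccn2, Thbs1 and Ccn1 closed the order at 46.7, 43.3 and 41.9 CPM per kb and could not be ranked, since Ccn2 exceeded Thbs1 in only 4 of 7 libraries and Thbs1 exceeded Ccn1 in 4 of 7. Inhba lay far below at 0.042 CPM per kb. Summed without regard to length, the 10 genes took 1.27 to 2.12% of the TMM-scaled library size, with 0.651 to 1.08% from Sparc alone.

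Several members shared their high libraries. Tnc-/- library 4 was the highest of all 7 libraries in 7 of the 9 genes (all but Thbs1 and Ccn1). Within wild type, library 1 was the highest in 7 genes and library 2 the lowest in 7. Ccn1 broke the pattern, since wild-type library 1 was its lowest library and Tnc-/- library 4 was below Tnc-/- libraries 2 and 3. Ccn2 followed the others in Tnc-/- but not in wild type, where library 1 was the lowest. Fibroblast markers were likewise highest in wild-type library 1 and Tnc-/- library 4. The geometric mean of Pdgfra, Pdgfrb, Col1a1, Col1a2, Col3a1, Dcn, Lum and Thy1 was 1655, 1091 and 1414 CPM in wild type and 1118, 1209, 1247 and 1643 CPM in Tnc-/-, in library order. In RNA from a whole joint, fewer cells of a type and less RNA per cell cannot be told apart. The pattern was not particular to fibroblast markers. Tendon markers summed to 2343 CPM in Tnc-/- library 4 and 1859 CPM in wild-type library 1, macrophage markers to 746 and 729 CPM and bone markers to 1457 and 1461 CPM, these being the 2 highest of the 7 libraries in each case. Cartilage markers were also highest in Tnc-/- library 4, with a sum of 2022 CPM against 566 to 1368 CPM elsewhere. The part of these cell types in the members' levels was not tested.

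**Figure D3:**
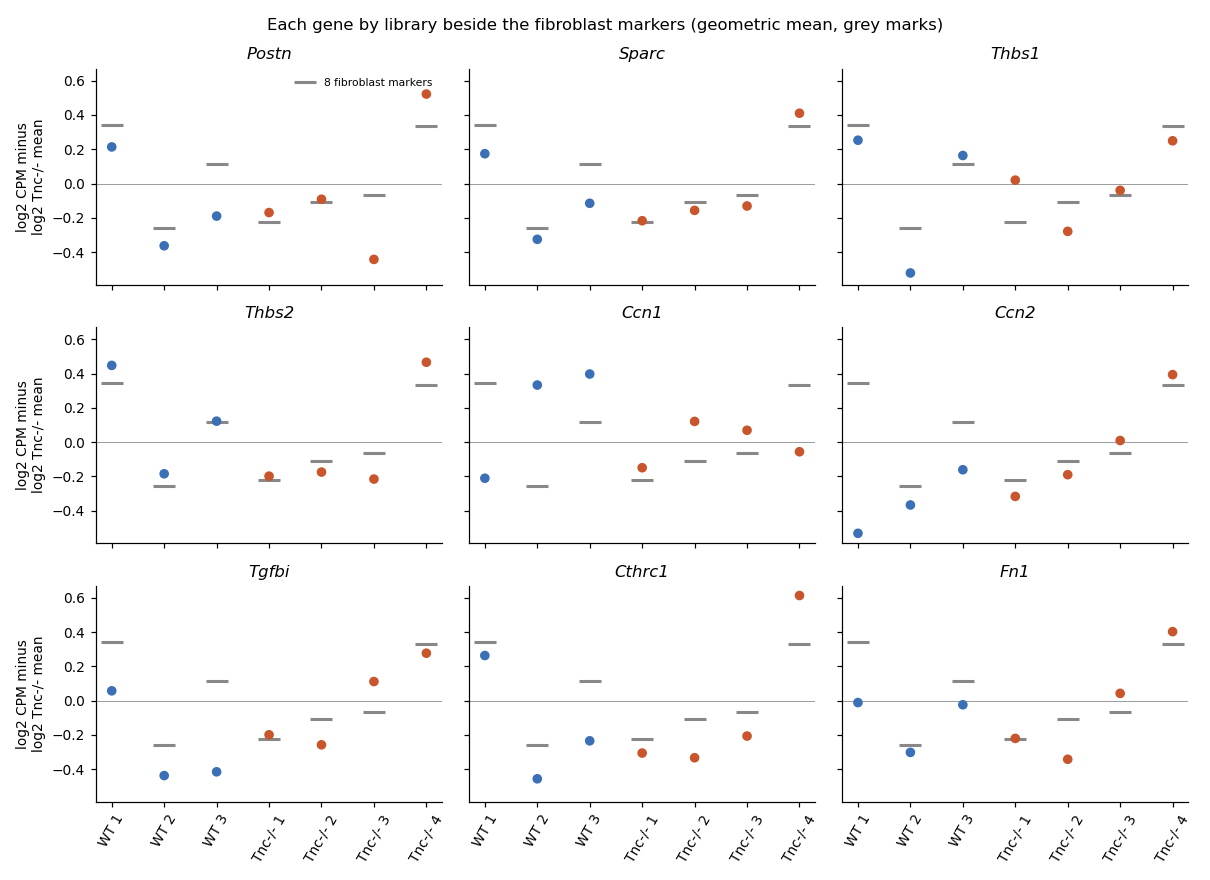
Log2 CPM of each tested gene in each library (blue, wild type; orange, Tnc-/-) minus the log2 of its Tnc-/- mean, with the geometric mean of the 8 fibroblast markers on the same scale as grey marks. Sparc, Thbs2 and Cthrc1 track the marks, with Tnc-/- library 4 and wild-type library 1 high, whereas Ccn1 is lowest in wild-type library 1.

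Dividing each gene by the fibroblast markers of its own library, a step added after the values were seen, narrowed the spread within Tnc-/- for 8 of the 9 genes. For Sparc the coefficient of variation fell from 22.0% to 4.50% and for Thbs2 from 25.4% to 8.47%. That of Ccn1 widened from 8.40% to 17.5%. Within wild type the coefficient of variation widened for Ccn1, from 21.5% to 36.9%, and for Ccn2, from 12.9% to 25.8%, and was lower for the other 7 genes. On this scale Sparc, Ccn2 and Tgfbi were higher in all 4 Tnc-/- libraries than in all 3 wild-type libraries, by 0.15, 0.41 and 0.33 on the log2 scale. Of all tested genes, 27.4% did not overlap between genotypes on this scale (17.1% higher and 10.4% lower in Tnc-/-), and nothing particular to these genes is read from 3 of 9. Each had p = 0.0571 in an exact two-sided permutation test, the smallest this design allows, and an adjusted p of 0.171 over the 9 genes. The denominator itself was not neutral: Lum, 1 of the 8 markers, was called lower in Tnc-/- (log2 fold change -0.63, edgeR adjusted p = 0.0482). Thbs1 and Postn overlapped between genotypes on this scale as before.

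Ratios of related genes within a library do not depend on how libraries are scaled. Ccn1 to Ccn2 was the only one of 4 that separated the genotypes. In CPM, 35.1% of all tested genes separated them too, and nothing particular to this pair is read from 1 of 4. Its count ratio was 0.676, 0.879 and 0.797 in wild-type libraries 1 to 3 and 0.608, 0.671, 0.564 and 0.396 in Tnc-/- libraries 1 to 4. Every Tnc-/- library was below every wild-type library, though Tnc-/- library 2 and wild-type library 1 nearly touched. The higher wild-type ratios were those of libraries 2 and 3, which had the high olfactory and vomeronasal receptor sum. With that sum as a covariate in edgeR, the log2 fold changes were 0.38 for Ccn1 and 0.54 for Ccn2. The part of the receptor background in this ratio was not tested. The ratio of Tnc-/- to wild type was 0.705, or -0.50 on the log2 scale, with p = 0.0571 in the exact two-sided permutation test, the smallest the design allows, and 0.229 adjusted over the 4 ratios. Leaving out single libraries moved it between -0.61 and -0.35. The other 3 ratios overlapped between genotypes. Thbs1 to Thbs2 ran from 0.559 to 0.726 in wild type and from 0.607 to 0.821 in Tnc-/- (exact permutation p = 0.343). Postn to Tgfbi ran from 6.37 to 7.07 in wild type and from 4.12 to 7.17 in Tnc-/- (exact permutation p = 0.571). Sparc to Fn1 ran from 1.63 to 1.98 and from 1.54 to 1.98 (exact permutation p = 0.971).

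**Figure D4:**
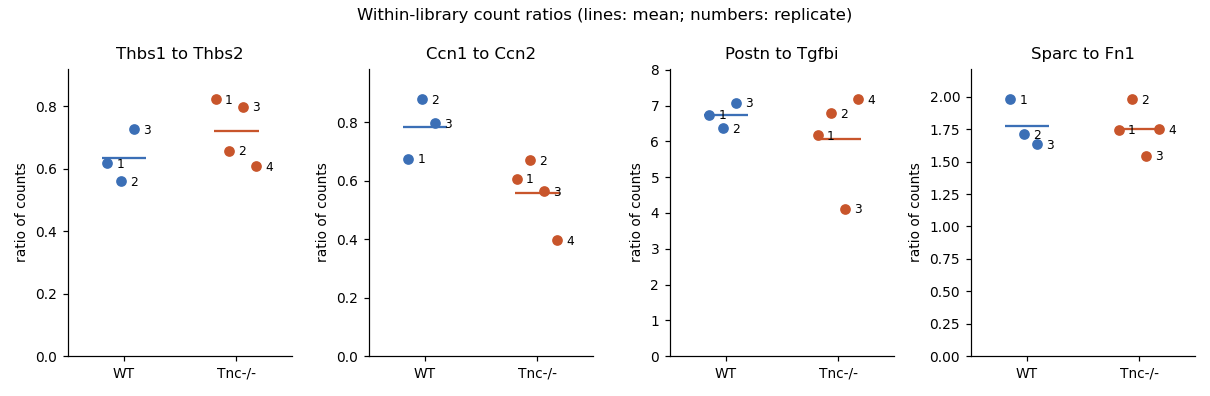
Ratio of raw counts within each library for 4 gene pairs, wild type in blue and Tnc-/- in orange, with replicate numbers and group means as lines; axes start at 0. For Ccn1 to Ccn2 all Tnc-/- points (0.396 to 0.671) lie below all wild-type points (0.676 to 0.879), and the other pairs overlap.

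Among 24 other matricellular genes, 23 were tested, 0 were called higher and 3 lower in Tnc-/- (median log2 fold change -0.046), beside 10.3% and 18.7% of all tested genes. The tendon and cartilage thrombospondin Thbs4 was abundant in both genotypes, at 1533 ± 232 CPM in wild type and 1720 ± 400 CPM in Tnc-/- (SD, n = 3 and 4), with a log2 fold change of 0.17 (edgeR adjusted p = 0.607). Thbs3 was listed at 0 in all 7 libraries. Of the CCN family, Ccn3, which often opposes Ccn2, fell in Tnc-/- from 164 ± 25.7 to 107 ± 27.2 CPM, a log2 fold change of -0.62 (SE 0.20; adjusted p = 0.0492), a call kept in 1 of the 7 fits that left out a library (that without Tnc-/- library 4). Ccn4 (-0.15, adjusted p = 0.571) and Ccn5 (0.015, adjusted p = 0.973) were not called, although Ccn5 was called lower in 1 of 20 alternatives (-1.09, adjusted p = 0.0489, with the replicate block and the receptor sum). Nor was Spp1, or osteopontin (-0.33, adjusted p = 0.299). The testicans Spock1 and Spock3, relatives of Sparc, were called lower, with log2 fold changes of -6.34 and -4.19 (adjusted p = 0.00766 and 0.00814 in edgeR). Their wild-type level came from the libraries with the high receptor sum: Spock1 had 2.3 CPM in wild-type library 1 and 66.3 and 34.8 CPM in libraries 2 and 3, and Spock3 had 3.7, 51.1 and 42.9 CPM. Against wild-type library 1 alone, with 1 sample in that arm, the log2 fold changes were -2.45 (adjusted p = 0.092) and -1.07 (adjusted p = 0.189).

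Receptors that bind or clear these proteins changed in both directions: 4 of 15 were called higher and 2 lower (median log2 fold change 0.15), beside 10.3% higher and 18.7% lower over all tested genes. Itgav, the integrin alpha-v chain that pairs with several beta chains to bind periostin, fibronectin and CCN proteins, fell from 95.1 ± 11.8 to 62.0 ± 2.01 CPM (log2 fold change -0.62, SE 0.12; edgeR adjusted p = 0.00929). Its partner Itgb3 was higher (0.87, SE 0.25; adjusted p = 0.0315), from 103 ± 35.2 to 189 ± 35.3 CPM. Itgb3 is also the platelet fibrinogen receptor chain, and the platelet markers were higher in Tnc-/- as given beside Thbs1; their part in it was not tested. Itga8, which binds fibronectin and tenascin C, fell by 1.70 (SE 0.29; adjusted p = 0.00732). Its wild-type level was 13.4 CPM in library 1 and 25.0 and 28.3 CPM in libraries 2 and 3, those with the high receptor sum, and 5.95 to 7.73 CPM in Tnc-/-. Against wild-type library 1 alone it was -0.98 (adjusted p = 0.0564). Also called higher were Lrp1, an endocytic receptor that takes up thrombospondins and Ccn2 (0.79, SE 0.20; adjusted p = 0.0207), Stab1, the macrophage scavenger receptor for Sparc (0.65, adjusted p = 0.0228), and the Wnt co-receptor Lrp5 (0.64, adjusted p = 0.0112). The related Wnt co-receptor Lrp6 (-0.17, adjusted p = 0.335) and the thrombospondin receptor Cd36 (0.15, adjusted p = 0.632) were not called. Leaving out wild-type library 3 ended the calls of Itgb3, Lrp1, Stab1 and Lrp5. So did Tnc-/- library 3 for Itgb3, Lrp1 and Stab1, wild-type library 2 and Tnc-/- library 4 for the same 3, Tnc-/- library 1 for Itgb3 and Tnc-/- library 2 for Stab1.

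Of 11 genes of the activin axis, 10 were tested, 1 was called higher and 2 lower (median log2 fold change -0.43), near the 29% called over all tested genes. Acvr2a, a type II receptor that binds activin, fell from 41.8 ± 7.47 to 19.9 ± 4.27 CPM (log2 fold change -1.07, SE 0.21; edgeR adjusted p = 0.00877). Its exons overlap those of Orc4 on the opposite strand over 7.84% of their length. The type I activin receptor Acvr1b was higher (0.82, SE 0.19; adjusted p = 0.0154), a call that ended without wild-type library 3 or Tnc-/- library 3. Tgfbr3, or betaglycan, the co-receptor for inhibin, fell by 0.51 (SE 0.13; adjusted p = 0.0208), a call kept in 1 of 7 fits that left out a library (that without wild-type library 1). The activin inhibitor Fst, follistatin, had 24.6 ± 5.04 CPM in wild type and 19.2 ± 1.44 CPM in Tnc-/- (adjusted p = 0.181). It was called lower with quality weights (-0.47, adjusted p = 0.0228) and under library totals (-0.59, adjusted p = 0.0355). The second activin subunit, Inhbb, had 6.27 ± 2.89 and 7.07 ± 0.966 CPM (adjusted p = 0.775).

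Regulators and further targets of the Hippo and TGF-beta pathways numbered 16, with 4 called higher and 1 lower (median log2 fold change 0.18), a total near the 29% called over all tested genes. Tead3, a DNA-binding partner of YAP and TAZ, rose from 12.6 ± 1.70 to 27.1 ± 2.32 CPM (log2 fold change 1.11, SE 0.17; edgeR adjusted p = 0.0067). Srf, which with its MRTF cofactors also drives Ccn1 and Ccn2, rose by 0.73 (SE 0.14; adjusted p = 0.00835). Tgfb1 rose by 0.77 (SE 0.19; adjusted p = 0.0203), which held without wild-type library 1 or Tnc-/- library 2 but not without any other single library. Amotl2, a YAP target, rose by 0.56 (SE 0.18; adjusted p = 0.044), a call that ended when any other single library than wild-type library 1 was left out. Wwtr1, which encodes TAZ, fell by 0.50 (SE 0.13; adjusted p = 0.0194), a call that ended without wild-type library 3, Tnc-/- library 1 or Tnc-/- library 3. Ccn1 and Ccn2, described above, were not called in the same fit. Of the 17 calls in these 4 lists, 7 held in every fit that left out 1 library (Spock1, Spock3, Itga8, Itgav, Acvr2a, Tead3 and Srf). DESeq2 with Benjamini-Hochberg adjustment kept 17 and with Bonferroni adjustment 5 (Spock1, Spock3, Itga8, Itgav and Tead3). Limma voom kept 8, without Spock1 (adjusted p = 0.265) and Spock3 (adjusted p = 0.197), and Amotl2 was not called under any of the 3 other scalings (adjusted p = 0.0533 to 0.184), nor Itgb3 under library totals (adjusted p = 0.0604). With library 1 as the sole wild type, 1 sample in that arm, Itgav and Tead3 were called and all 17 fold changes kept their direction. With the receptor sum as a covariate 0 were called (lowest adjusted p = 0.0645), while 16 of the 17 fold changes kept their direction (all but Spock3). Of these, 3 were at least as large as before (Itgav -0.79, Ccn3 -1.01 and Wwtr1 -0.67), and 9 of the 17 came to less than 0.5 of their former size on the log2 scale. Those 9 were Spock1 (-0.99), Spock3 (0.091), Itga8 (-0.71), Itgb3 (0.16), Lrp1 (0.35), Stab1 (0.17), Acvr1b (0.20), Tgfbr3 (-0.15) and Tgfb1 (0.15).

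**Figure D5:**
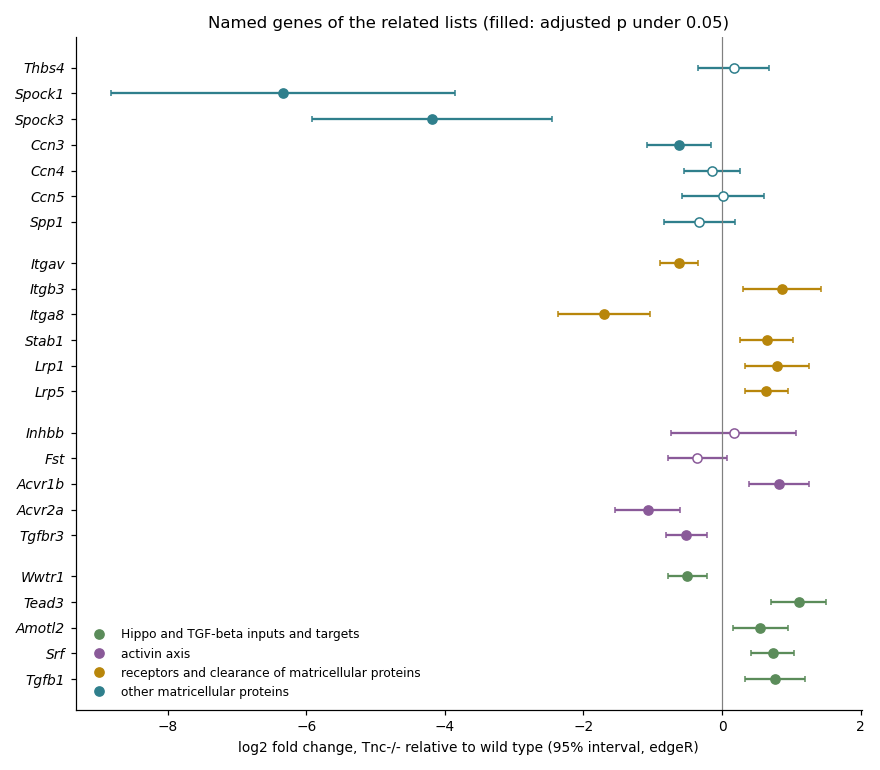
Log2 fold change, Tnc-/- relative to wild type, with 95% intervals from edgeR, for the named genes of the 4 related lists (colours); filled points had an adjusted p under 0.05. Spock1 (-6.34) and Spock3 (-4.19) have the widest intervals, and receptor and pathway genes lie on both sides of 0.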

How the data were processed

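Poly(A) RNA of 7 whole joints was sequenced, 1 library per mouse, from NEBNext Ultra kits per the labels. The authors deposited raw counts of reads per gene, 1 file per library, and the submitters' processing notes name FastQC 0.11.9, HISAT2 2.2.1, HTSeq 2.0.2 and DESeq2 1.38.3 with build GRCm39 (mm39). Annotation and strand setting are not given in the sources used here. Wild-type files list 56980 identifiers without symbols and Tnc-/- files 56941 with symbols; 56854 are common, 126 occur only in the wild-type and 87 only in the Tnc-/- files. The rows that name no gene, present in the Tnc-/- files, held 30.1 to 32.7% of their reads and were left out; ambiguous reads were 14.2 to 14.6% of gene plus ambiguous reads. Samples were grouped by genotype. Nothing beyond the design says how the mice were bred, so p-values measure the spread between these 7 animals.

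Counts were tested in edgeR 4.0.16 (R 4.3.3, filterByExpr, TMM, robust quasi-likelihood F test), with Benjamini-Hochberg adjustment over all 17791 genes and a threshold of 0.05. The fit was also run on simulated data with 200 changed genes. Those data were drawn around the Tnc-/- means with a single dispersion and no receptor background. They do not measure the error of the calls reported here. CPM were computed here from the counts. Single values were compared by exact two-sided permutation over 35 splits. Alternatives were DESeq2 1.42.0, limma 3.58.1 voom, other scalings and filters, the receptor sum as a covariate, single libraries left out and the replicate number as a block. Exon lengths and overlaps came from GENCODE M21 (GRCm38), not the authors' annotation. Promoters came from RefSeq, which here held 6 of the 10 members; Thbs1, Ccn2, Cthrc1 and Fn1 were not in the table.

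The members and lists were chosen with earlier results of these data known. The text names all members, every called gene of the related lists, and Thbs3, Thbs4, Ccn3, Ccn4, Ccn5, Spp1, Fst and Inhbb whatever their p; 1 further gene of this rule is not reported here; other genes appear only as markers or overlapping transcripts, and Lum, Scx, Itgam, Alas2, Lrp6 and Cd36 were singled out after their values were seen.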

Additional observations from a re-analysis of the deposited data

Results flagged for a closer look

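Within the 4 Tnc-/- libraries, 34 sets of values (members in CPM and relative to the fibroblast markers, ratios and marker sums) were screened for a single library far from the rest, and 5 were picked out; chance picks about 1 in 20. Of these, 3 were members in Tnc-/- library 4, namely Sparc at 10835 CPM, Thbs2 at 514 CPM and Cthrc1 at 275 CPM, where the gap to the next library took up 0.887, 0.952 and 0.901 of the group's range. Inhba was picked out at 0.112 CPM in Tnc-/- library 3, which is 2 counts against 0 in the other 3 libraries and lies under the floor of 3 counts. The sum of 5 erythroid markers was 24390 CPM in Tnc-/- library 1 against 12283 to 14334 CPM in the others.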

How the results depend on the processing

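The 9 tested members were fitted under 20 alternatives each, 180 fits in all, of which 3 passed the threshold and 41 had the opposite sign to the reported value; log2 fold changes ran from -0.80 to 0.54, and the cause was not tested. The number of members called was 2 with quality weights and 0 to 2 over the fits that left out a library. Tgfbi was called higher and Inhba lower when wild-type library 1 was left out, a fit that called 14113 of 21989 genes. The number of all genes called, 5159 as reported, was 1653 with DESeq2 and Bonferroni adjustment, 973 with limma voom, 10084 with quality weights, 399 with the receptor covariate, 825 with wild-type library 1 alone, 1713 with the replicate block, 280 with the replicate block and covariate, and 2229 to 14113 with a library left out. Scaling by library totals gave 951 genes higher and 4541 lower and moved the median over all tested genes to -0.24. The balance turned in limma voom, with 707 higher and 266 lower, and with the replicate block and covariate, with 207 and 73. It also turned against wild-type library 1 alone. The other alternatives called more genes lower than higher.

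Signs turned as follows, with values in log2 fold change. Under library totals Postn was -0.14, Sparc -0.16, Cthrc1 -0.12, Fn1 -0.14, Thbs4 -0.071, Ccn5 -0.22 and Inhbb -0.049. With the receptor covariate Postn was -0.43, Sparc -0.36, Ccn1 0.38, Tgfbi -0.25, Cthrc1 -0.55, Fn1 -0.11, Spock3 0.091, Thbs4 -0.21, Ccn5 -0.61 and Inhbb -0.78. Against wild-type library 1 alone Postn was -0.22, Sparc -0.18, Ccn1 0.20, Tgfbi -0.063, Cthrc1 -0.27, Thbs4 -0.043, Ccn5 -0.34 and Inhbb -0.40. With the replicate block Postn was -0.12, Sparc -0.082, Cthrc1 -0.14, Fn1 -0.064 and Ccn5 -0.12. With the block and covariate Postn was -0.52, Sparc -0.53, Ccn1 0.15, Tgfbi -0.40, Cthrc1 -0.75, Fn1 -0.26, Acvr1b -0.060, Thbs4 -0.19, Ccn5 -1.09 and Inhbb -1.14. Quality weights gave Postn -0.0051, at least 10 counts per library gave Sparc -0.0027 and Ccn5 -0.060, and Thbs1 was 0.026 in limma voom, 0.070 without a filter and 0.11 relative to the fibroblast markers. Ccn5 was -0.026 in DESeq2 under either adjustment, -0.027 with its size factors in edgeR and -0.054 with upper-quartile scaling. Leaving out 1 library gave Postn -0.14 to 0.37, Sparc -0.096 to 0.31, Thbs1 -0.21 to 0.23, Thbs2 -0.35 to 0.12, Cthrc1 -0.17 to 0.43, Fn1 -0.061 to 0.25, Thbs4 -0.0045 to 0.37, Ccn4 -0.28 to 0.035, Ccn5 -0.18 to 0.32 and Inhbb -0.11 to 0.65.

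Deviations of same-numbered samples of the 2 genotypes had correlations of -0.0053, 0.102 and -0.0055, and those of differently numbered samples -0.103 to 0.092. The wild-type deviations include the difference in receptor sum between libraries, so these correlations cannot decide whether replicate numbers pair the samples. Under the replicate block 0 members were called and 8 of the 17 calls in the related lists held. The calls of Spock1, Spock3, Lrp1, Lrp5, Stab1, Acvr1b, Tgfbr3, Wwtr1 and Amotl2 were lost. Without a filter on low counts Ccn3 and Wwtr1 were not called (adjusted p = 0.0788 and 0.0585), and with at least 10 counts in every library Amotl2 was not (adjusted p = 0.0657). Depth leaves Inhba undecided where its count was 0, which allows up to 0.111 to 0.167 CPM.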
